A study of Homo sapiens with 8 samples.

Results

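The mRNAs described here encode proteins that take part in pre-mRNA splicing or regulate it. They were taken from a table of transcript levels by gene symbol, as every transcript whose RefSeq identifier belongs to a symbol that begins with SRSF, HNRNP, SNRP, SF3A, SF3B or U2AF, leaving out pseudogenes and antisense genes. The rule used no measured value. It gave 61 genes of 25695 and 142 transcripts of 53216. By role they were 24 hnRNP genes, 12 SR protein genes, 9 genes of the SF3A and SF3B complexes, 8 Sm core genes, 4 genes of proteins specific to the U1 or U2 snRNP, 3 U2AF genes and 1 readthrough transcript, HNRNPUL2-BSCL2. The 6 pseudogene transcripts that matched the symbols were not counted.

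RNA came from HEK293T, a human embryonic kidney cell line that was grown under standard conditions and left untreated. There were 2 wild-type (WT) libraries of RNA depleted of ribosomal RNA with the RiboMinus kit, 3 libraries of WT RNA enriched by NAD-Capture, and 3 NAD-Capture libraries from cells whose label is DXO-KO, meaning that DXO was knocked out. In NAD-Capture, a cyclase (ADPRC) swaps part of the NAD on an RNA for an alkyne, click chemistry joins biotin to it, and streptavidin beads pull the RNA down. DXO encodes an enzyme that removes NAD caps from RNA. The labels name no clone and no site of the deletion, and they do not say whether libraries of a group came from separate cultures, so p-values measure the spread between these libraries, which may be technical. The libraries enriched with RiboMinus were made with a TruSeq kit and those of NAD-Capture with a SMARTer low-input kit, so enrichment and library kit cannot be told apart. A reaction without the cyclase is named in the labels as background control and was not analysed here.

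NAD can take the place of the usual cap at the 5′ end of an RNA whose first base is adenosine. Splicing removes introns through the spliceosome, in which small nuclear ribonucleoproteins (snRNPs) carry a ring of Sm proteins around their RNA. The U1 snRNP marks the 5′ splice site. U2AF recognises the 3′ splice site and helps the U2 snRNP, with its SF3A and SF3B complexes, to settle on the branch point. SR proteins and hnRNPs bind exons and introns and shift which sites are used. Many SR protein and hnRNP genes tune their own level by making noncoding transcripts that carry a poison exon or a retained intron and are degraded.

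Values are FPKM, which counts sequenced fragments relative to transcript length and library size. The libraries differed in depth, which was read from the size of the smallest steps in the values: the RiboMinus libraries held the equivalent of 10668663 and 8723843 fragments, WT NAD-Capture 165460 to 248590, and the DXO-KO-labelled libraries 80469 to 804730. The median member gene had about 1992 and 1565 fragments in RiboMinus and about 15 to 91 in the NAD-Capture libraries, so a member's level in NAD-Capture rests on few fragments. DXO itself read 11.2 and 14.3 FPKM in RiboMinus, 33.2, 17.2 and 27.1 among WT NAD-Capture libraries and 127.6, 61.6 and 71.7 in the DXO-KO-labelled libraries, so its RNA was highest where the label says knockout, without overlap between the NAD-Capture groups (log2 difference 1.69, adjusted p = 0.117). No value here checks whether the gene was disrupted, and the libraries are called by their label. Of the marker genes for HEK293T cells, the summed FPKM was 345 to 364 in RiboMinus, 171 to 243 among WT NAD-Capture libraries and 343 to 436 in the DXO-KO-labelled libraries. VIM made up most of the sum, with 321.4 and 307.6 FPKM in RiboMinus, 77.8, 102.7 and 72.5 among WT NAD-Capture libraries and 214.5, 272.0 and 296.9 in the DXO-KO-labelled libraries. NEFM went the other way, with 3.89 and 4.203, then 83.1, 79.3 and 34.8, then 36.1, 12.5 and 16.2, and KRT8, PAX2, LHX1, NEFL and ENO2 also read higher in each WT NAD-Capture library than in both RiboMinus libraries. KRT18, like VIM, read lower in each WT NAD-Capture library, with 22.3 and 18.7, then 16.7, 4.86 and 8.88, then 21.2, 23.2 and 0. The 9 markers of blood, fibroblasts, liver and endothelium summed to 2.09 to 2.16 FPKM in RiboMinus, 11.4 to 22.5 among WT NAD-Capture libraries and 5.26 to 16.1 in the DXO-KO-labelled libraries. Of the blood markers, PTPRC and HBB were listed at 0 in all 8 libraries and CD3E in all but replicate 1 labelled DXO-KO, where it read 0.930. COL1A1 read 1.27 and 1.56 in RiboMinus, then 8.27, 8.57 and 9.28 in WT NAD-Capture, then 4.43, 2.57 and 0 in the DXO-KO-labelled libraries. APOA1 read 0.391 and 0, then 14.2, 0 and 0, then 8.41, 9.83 and 0 in the same order. PECAM1 read 0 and 0, then 0, 2.88 and 5.75, then 1.19, 0 and 2.92. COL3A1, DCN and ALB read at most 2.35 in any library. The part of either marker list in the results below was not tested. In bulk RNA, fewer cells that make an RNA and less of it per cell cannot be told apart.

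Because NAD needs a 5′ adenosine, the annotated starts of members that differed most between NAD-Capture and RiboMinus are shown first. They are the genes with a single start in the RefSeq table (assembly GRCh38.p14), plus both starts of SF3B1. Each window runs from 15 bases before to 15 bases into the transcript, 5′ to 3′ on the gene's strand, with the first transcribed base in capitals. The genes from SNRPF to SF3B1 read higher in WT NAD-Capture than in RiboMinus and those from SRSF3 to SF3B2 lower.
SNRPF, chr12:95858937-95858966, plus strand: tgaaaggtcatagtcCtgtttggcggccat
SNRPC, chr6:34757490-34757519, plus strand: gcgcgtcatttccggGcgtcacgtaacgga
HNRNPD, chr4:82373977-82374006, minus strand: acgcgccgttcttccGtcggccattttagg
HNRNPA2B1, chr7:26200732-26200761, minus strand: agcggctctagcggcAgtagcagcagcgcc
HNRNPC, chr14:21269428-21269457, minus strand: cttcgcctcggcggcAgaggagactcgggg
SF3B1, chr2:197435014-197435043, minus strand: gttcttgggagcgccAgttccgtctgtgtg
SF3B1, chr2:197435079-197435108, minus strand: gtttggcgcacgcgcAgagtgcagccccca
SRSF3, chr6:36594347-36594376, plus strand: ggagaaggcggtggtCcgccatttcgtgga
SRSF6, chr20:43457881-43457910, plus strand: gcgcgcgcgcgcgccAttgtgtggctggac
SRSF9, chr12:120469734-120469763, minus strand: tttgcctccgccgacCccttcgcttccgct
SF3B2, chr11:66052349-66052378, plus strand: gcttccgggttggtcGcgcgccttcctgcg

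An A at the first base appeared on both sides, in HNRNPA2B1, HNRNPC and SF3B1 as in SRSF6, and SNRPF and SNRPC, which read higher in NAD-Capture, have annotated starts at C and G. The table held starts for 57 members. Of their 80 starts, 33 began with A (41.2%), against 50.1% of the 22199 starts of protein-coding genes. The 12 members called higher in WT NAD-Capture, below, had 19 listed starts in 11 genes, of which 7 began with A. The 12 called lower had 11 starts in 9 genes, of which 5 began with A. An annotated start need not be the one used in these cells, and the files do not give the 5′ ends of the captured molecules. The letters GCCATT, or AATGGC on the other strand, lay within the printed window in 10 of the 57 genes (17.5%), among them HNRNPD, HNRNPH1, SNRPD3, SRSF1, SRSF3 and SRSF6, against 1.96% of the protein-coding genes. They are seen above in SRSF3, SRSF6 and HNRNPD, which moved in different directions.

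Splicing factor mRNAs were abundant in every library. The median member stood at the 96.8th and 96.5th percentile of all genes in the RiboMinus libraries and between the 96.0th and 96.7th in the NAD-Capture libraries. All members together made up 1.86% and 1.85% of the FPKM summed over coding transcripts in RiboMinus, 1.66% to 1.82% among WT NAD-Capture libraries and 1.76% to 1.94% in the DXO-KO-labelled libraries. The shares of the roles within that total differed more than the total did. SR protein genes took 0.406% in both RiboMinus libraries, 0.139% to 0.172% in WT NAD-Capture and 0.136% to 0.215% in the DXO-KO-labelled libraries. Sm core genes took 0.282% and 0.285% in RiboMinus, 0.366% to 0.379% among WT NAD-Capture libraries and 0.369% to 0.446% in the DXO-KO-labelled libraries. The SR share was lower, and the Sm share higher, in each of the 6 NAD-Capture libraries than in both RiboMinus libraries.

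In RiboMinus RNA, per length of transcript, SNRPB was the most abundant member at 395 and 404 FPKM, ahead of HNRNPH1 at 364 and 362 and SNRPD2 at 335 and 313. SNRPB and SNRPD2 encode subunits of the Sm ring, and HNRNPH1 an hnRNP that binds runs of G. HNRNPA2B1 followed at 297 and 267, then HNRNPAB at 260.2 and 244 and SRSF2 at 236 and 239. HNRNPA2B1 was the highest member in 5 of the 6 NAD-Capture libraries, and SNRPD2 in replicate 1 labelled DXO-KO. At the low end, SRSF12 read 3.49 and 3.29 FPKM and U2AF1L4 2.95 and 1.25. SNRPN, an Sm gene related to SNRPB with 4 listed transcripts, and HNRNPCL1 were listed at 0 in all 8 libraries, as were the 9 SRSF10 transcripts that the table holds under a second entry.

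Comparing DXO-KO-labelled with WT NAD-Capture libraries bears on whether loss of the enzyme leaves more of these mRNAs with NAD. The RiboMinus libraries are all WT, so differences in mRNA level, in NAD and in background capture cannot be told apart. No member passed an adjusted p of 0.05 in limma's moderated test on log2(FPKM + 1), among 59 tested genes, where 0.0774% of all 18084 genes tested passed, 0.0387% higher and 0.0387% lower. Without adjustment, 9 of the 59 members had a p under 0.05, beside 16.5% of all genes tested. The lowest adjusted p of a member was 0.135. The median difference over members was 0.21 (log2), with 40 higher and 19 lower, against a median of -0.02 over all genes. Most members are abundant: among genes with a mean of at least 10 FPKM the median was 0.21 over the 52 members (36 higher) and 0.27 over all 7109 genes. Under quantile normalization the members' median was -0.10, so its direction turned with the scaling. The median standard error of a member's difference was 0.36, larger than the median difference. The WT NAD-Capture libraries also enter the next comparison, so the values of the comparisons are not independent.

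**Figure D1:**
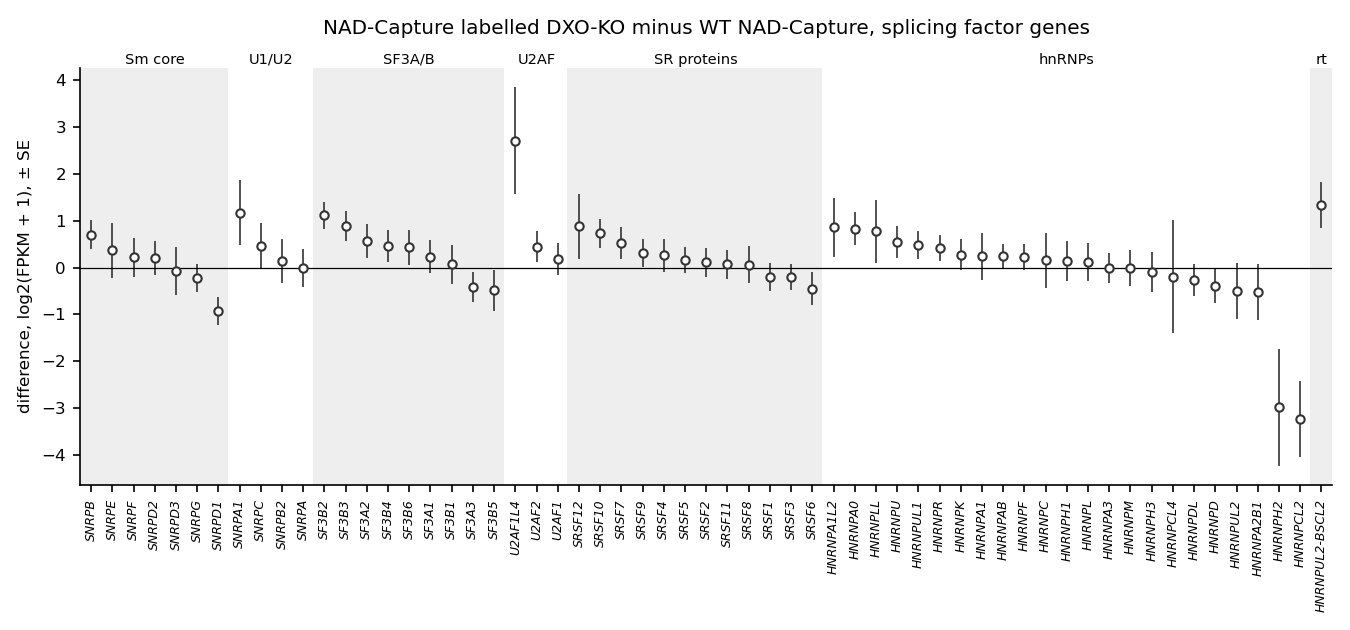
Difference between the NAD-Capture libraries with the label DXO-KO and WT NAD-Capture for the 59 tested members, on the log2(FPKM + 1) scale, grouped by role (rt, the readthrough transcript). Points are estimates and bars their standard errors (3 libraries against 3); every point is open because no member passed an adjusted p of 0.05.

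SF3B2, a subunit of the SF3B complex that contacts the branch-point region, read 50.3, 38.3 and 37.5 FPKM across WT NAD-Capture and 102, 103 and 73.8 in the DXO-KO-labelled libraries. SF3B3, another subunit of that complex, read 28.3, 31.1 and 19.4 and 41.4, 47.3 and 58.6. For both genes the lowest library labelled DXO-KO lay above the highest of WT. Their log2 differences were 1.12 ± 0.29 (SE, adjusted p = 0.145) and 0.89 ± 0.32 (adjusted p = 0.235), neither past the threshold.

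SNRPD1, an Sm ring subunit, went the other way, with 111, 129.5 and 91.7 FPKM in WT and 64.1, 65.7 and 45.1 in the DXO-KO-labelled libraries (log2 difference -0.92 ± 0.29, adjusted p = 0.195). Groups did not overlap in 11 of the 59 members, 9 of them higher and 2 lower in the DXO-KO-labelled libraries, and 23.1% of all genes tested showed such a gap. HNRNPCL2, a gene without introns that closely resembles HNRNPC, read 5.28, 24.5 and 4.07 FPKM in WT and was listed at 0 in the DXO-KO-labelled libraries and in RiboMinus. Those WT levels correspond to about 1 to 4 fragments, and reads of HNRNPC and HNRNPCL2 may be split between the genes.

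Of the most abundant gene of each role, SRSF2 read 99.3, 58.2 and 79.1 in WT and 69.9, 83.6 and 98.4 in the DXO-KO-labelled libraries, a log2 difference of 0.11 ± 0.31. SNRPB, with 242, 216 and 208 and 269, 435 and 403, had non-overlapping groups and a difference of 0.70 ± 0.31 (adjusted p = 0.304). HNRNPH1, SNRPA, SF3B6 and U2AF1 had differences of 0.14, -0.01, 0.43 and 0.18, with overlapping groups. The readthrough HNRNPUL2-BSCL2 read 11.1, 17.8 and 6.3 in WT and 27.3, 18.8 and 47 in the DXO-KO-labelled libraries (difference 1.34 ± 0.49, adjusted p = 0.242); it overlaps HNRNPUL2, from which its reads cannot be fully separated. Replicate 1 labelled DXO-KO, the deepest NAD-Capture library, lay below the other two of its group in SNRPF, SNRPD3, SNRPC, HNRNPA2B1 and HNRNPC. Without it the members' median difference was 0.46, without replicate 3 of that label it was 0.050 (34 higher, 25 lower), and 0 members passed in either fit.

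Between WT NAD-Capture and WT RiboMinus, splicing factor mRNAs moved in both directions. Sm core genes and some hnRNP genes made up most of those higher, and SR protein genes most often read lower. Of 58 tested members 24 passed the threshold (41.4%), where 24.5% of all 17335 genes tested did. The 24 were 12 higher and 12 lower, against 16.6% and 7.87% of all genes. Groups did not overlap in 41 members, 15 higher and 26 lower, and in 55.3% of all genes tested. The median over members was -0.24 and over all genes 0.22. Among genes with a mean of at least 10 FPKM, the median was -0.24 over the 54 members and -0.33 over all 6948 genes, and 25 members (11 higher, 14 lower) and 34.3% of all genes were called. Relative to the median gene, that is after centring each library (which moved the median of all genes to -0.28), 8 members were called higher and 22 lower, where 31.1% of all genes were called, and after scaling to coding transcripts 9 and 24, where 31.4% were. With 2 RiboMinus libraries the calls depend on both: leaving out either left 0 gene sums called, in a fit where the lone library is taken to vary like the other group.

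**Figure D2:**
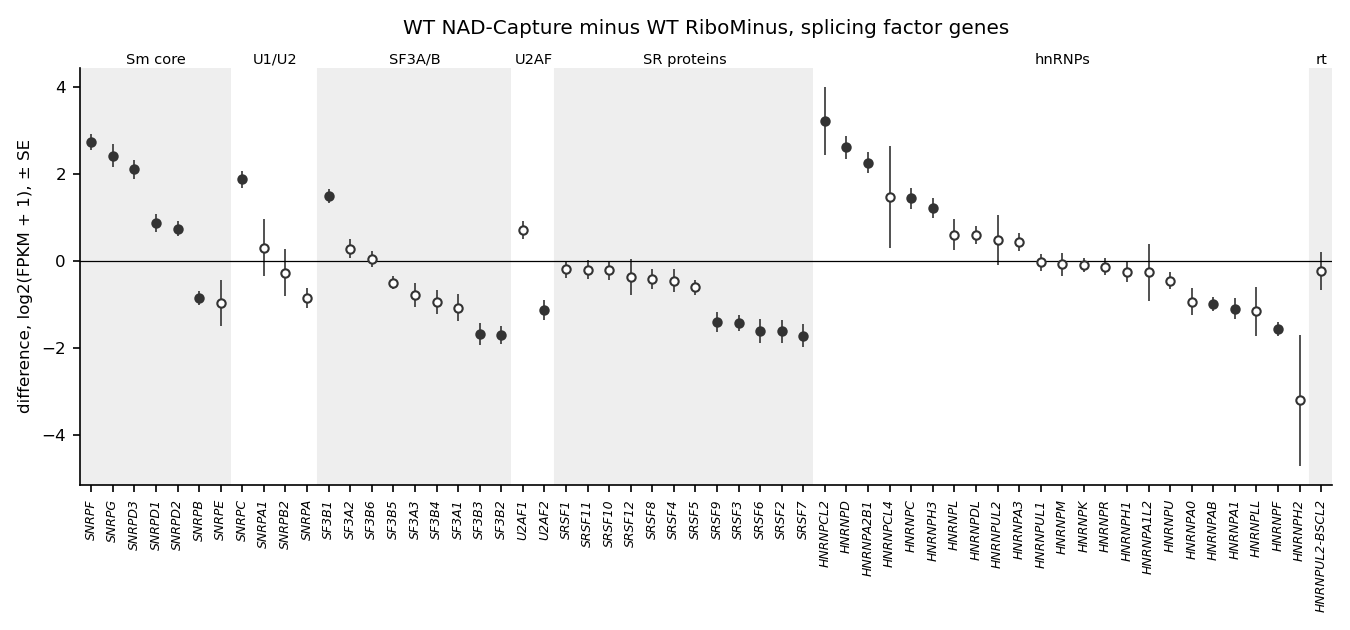
Difference between WT NAD-Capture (3 libraries) and WT RiboMinus (2 libraries) for the 58 tested members, on the log2(FPKM + 1) scale, grouped by role (rt, the readthrough transcript). Bars are standard errors and filled points passed an adjusted p of 0.05. Of 7 Sm core genes 5 are filled above 0, and of 12 SR protein genes 5 are filled below it. Over all genes tested 16.6% were called higher and 7.87% lower.

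Of the Sm core genes, whose products form the ring on spliceosomal snRNAs, 5 of 7 tested rose and 1 fell. Over all genes tested 16.6% were called higher and 7.87% lower. SNRPF read 50.1 and 46.6 FPKM in RiboMinus, 331, 373 and 285 among WT NAD-Capture libraries and 204, 490.2 and 551 in the DXO-KO-labelled libraries. SNRPG read 41.7 and 36, then 186, 286 and 179.6, then 159, 187 and 201 in the same order. All 6 NAD-Capture libraries lay well above both RiboMinus libraries for these genes. In WT the log2 differences were 2.74 ± 0.19 (adjusted p = 0.00234) and 2.42 ± 0.26 (adjusted p = 0.00471).

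SNRPD3 rose as well, from 72 and 67.2 FPKM to 363, 309 and 248 in WT NAD-Capture (log2 difference 2.11 ± 0.22, adjusted p = 0.00404), with 122, 478 and 408 in the DXO-KO-labelled libraries. The rises of SNRPD1 and SNRPD2 were smaller, 0.87 and 0.75 (adjusted p = 0.0366 and 0.0322). After centring or scaling to coding transcripts 3 Sm core genes were called higher and 1 lower, and under quantile normalization 4 and 1. SNRPB, the highest Sm gene in RiboMinus, fell from 395 and 404 to 242, 216 and 208 FPKM (log2 difference -0.85 ± 0.17, adjusted p = 0.021), so members of the same ring moved apart. SNRPE read 32.3 and 37.1 in RiboMinus and 29.8, 8.41 and 20.2 among WT NAD-Capture libraries and did not pass (adjusted p = 0.253).

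Among the proteins specific to U1 and U2, SNRPC, the U1 subunit that stabilises pairing at the 5′ splice site, rose from 70.3 and 70.6 FPKM to 299, 219.7 and 277, with 162, 456 and 639 in the DXO-KO-labelled libraries. Its log2 difference in WT was 1.88 ± 0.20 (adjusted p = 0.00429), and the groups did not overlap. SNRPA, which binds a stem-loop of U1 RNA, read 76.7 and 74.3 and then 43.1, 33.4 and 50, lower in each NAD-Capture library and short of the threshold (adjusted p = 0.0504). SNRPA1 and SNRPB2 of the U2 snRNP had overlapping groups.

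**Figure D3:**
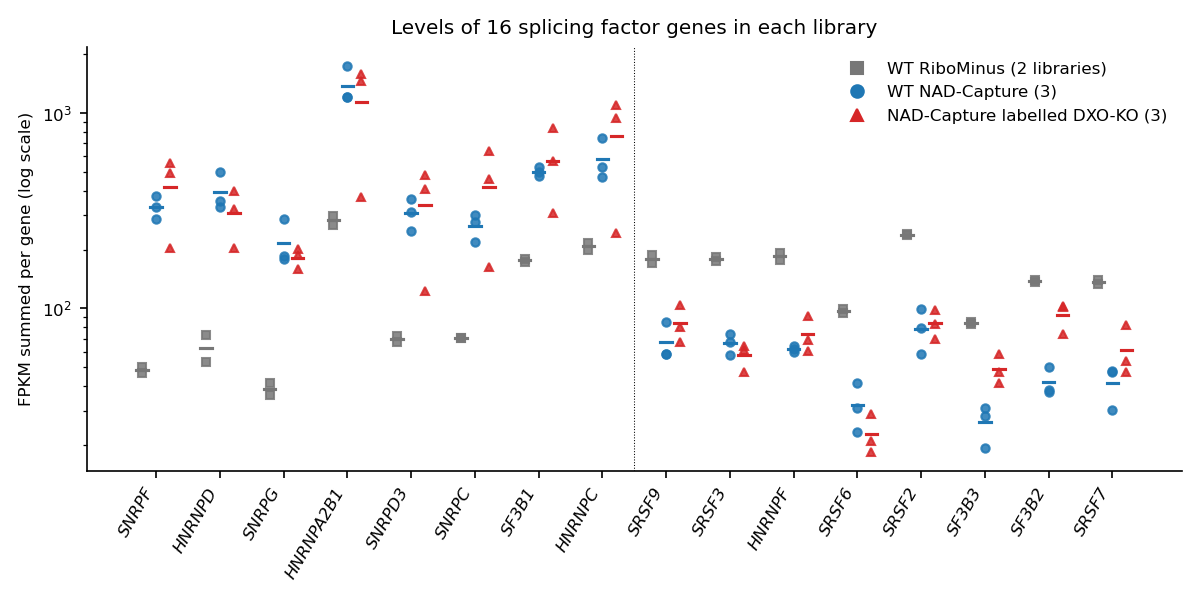
FPKM summed per gene (log axis) in each library for the 8 members with the largest rise and the 8 with the largest fall among those called in WT NAD-Capture against WT RiboMinus with non-overlapping groups and no library at 0, so that HNRNPCL2, listed at 0 in RiboMinus, is not drawn. Each point is a library and each short line a group mean; SNRPF reads 50.1 and 46.6 in RiboMinus and 331, 373 and 285 among WT NAD-Capture libraries, and SRSF2 236 and 239 and 99.3, 58.2 and 79.1.

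No SR protein gene rose. All 12 had negative differences, with a median of -0.53, and 5 passed the threshold. Over all genes tested, 55.4% read higher, 7.87% were called lower and the median was 0.22. Genes with a mean of at least 10 FPKM had a negative median and a larger share called, as given above. Under quantile normalization 11 of the 12 were negative, and under the other scalings all 12. SRSF2, which binds purine- and pyrimidine-rich exon elements, fell from 236 and 239 FPKM in RiboMinus to 99.3, 58.2 and 79.1 in WT NAD-Capture, and read 69.9, 83.6 and 98.4 in the DXO-KO-labelled libraries. SRSF3, the smallest SR protein, fell from 183 and 175 to 67.7, 57.9 and 74.3 and read 61.3, 64.4 and 47.5 in the DXO-KO-labelled libraries. Every NAD-Capture library of both groups was below both RiboMinus libraries for these genes.

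SRSF6 fell from 99 and 94.3 FPKM to 41.4, 31 and 23.5, with 18.6, 28.9 and 21 in the DXO-KO-labelled libraries. SRSF7, which like SRSF3 links splicing to export of mRNA, fell from 139.8 and 133 to 47.7, 47.6 and 30.2, and SRSF9 from 187 and 169.8 to 85.3, 58.5 and 58.8. The 5 log2 differences lay between -1.71 (SRSF7, adjusted p = 0.0108) and -1.41 (SRSF9, adjusted p = 0.0135), with SRSF2 at -1.61, SRSF6 at -1.60 and SRSF3 at -1.42. SRSF5 had a difference of -0.61 and narrowly missed (adjusted p = 0.051). SRSF1, the classical exon-enhancer factor also known as ASF/SF2, read 158 and 158 and 151, 153 and 116, a difference of -0.18 ± 0.20 (adjusted p = 0.534). SRSF10 and SRSF11 had overlapping groups.

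Of the SF3A and SF3B genes, 1 of 9 rose and 2 fell. That is 33.3% called, beside 24.5% of all genes tested (16.6% higher, 7.87% lower). It is near the share called among all genes with a mean of at least 10 FPKM, given above. SF3B2 fell from 139.7 and 136 FPKM in RiboMinus to 50.3, 38.3 and 37.5 in WT NAD-Capture (log2 difference -1.70 ± 0.20, adjusted p = 0.00578). SF3B3 fell from 85.2 and 83.1 to 28.3, 31.1 and 19.4 (difference -1.67 ± 0.25, adjusted p = 0.0108). Neither group overlapped with the other for these genes. SF3B1, the largest subunit and the one that grips the branch-point helix, was called as a rise, from 179 and 173 to 474, 528 and 497 (difference 1.50 ± 0.16, adjusted p = 0.0045), but its transcripts moved apart, as described with the transcripts below. SF3A1, SF3A3, SF3B4 and SF3B5 read lower in each WT NAD-Capture library than in RiboMinus without passing (adjusted p = 0.0653, 0.101, 0.0669 and 0.0706).

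U2AF2, the large U2AF subunit that binds the polypyrimidine tract, fell from 98.1 and 109 FPKM to 53.7, 52.1 and 37.5 (log2 difference -1.12 ± 0.23, adjusted p = 0.0234). U2AF1, the small subunit that reads the AG of the 3′ splice site, read 115 and 109 and 225, 161 and 172, higher in each WT NAD-Capture library, and did not pass (difference 0.71 ± 0.21, adjusted p = 0.0627). The subunits of the heterodimer thus stood on opposite sides of 0, only U2AF2 past the threshold.

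The hnRNP genes were mixed, with 5 called higher and 3 lower of 23. That is 34.8% called, beside 24.5% of all genes tested (16.6% higher, 7.87% lower). It is near the share called among all genes with a mean of at least 10 FPKM, given above. HNRNPA2B1, whose products bind many introns and 3′ ends, rose from 297 and 267 FPKM in RiboMinus to 1726, 1199 and 1200.4 in WT NAD-Capture, and read 371, 1445 and 1568 in the DXO-KO-labelled libraries. HNRNPD, also known as AUF1, which binds AU-rich elements, rose from 53.1 and 72.8 to 354, 498 and 329, with 203, 321 and 396 in the DXO-KO-labelled libraries. Both groups of NAD-Capture libraries lay above RiboMinus for these genes, and replicate 1 labelled DXO-KO was the lowest of the 6. The log2 differences in WT were 2.26 ± 0.24 (adjusted p = 0.00436) and 2.62 ± 0.26 (adjusted p = 0.0039).

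HNRNPC, which coats nascent transcripts, rose from 216 and 199.9 FPKM to 526, 739 and 468 (log2 difference 1.44 ± 0.25, adjusted p = 0.0151). HNRNPH3 rose from 58.9 and 55.3 to 158, 106 and 145, by 1.22 (adjusted p = 0.0189). HNRNPCL2, the remaining gene called higher, was listed at 0 in RiboMinus and rests on the few fragments given above. HNRNPF, a relative of HNRNPH1 that binds G-runs, fell from 192 and 178 to 62, 59.8 and 64.5 (difference -1.56 ± 0.16, adjusted p = 0.00397). HNRNPA1, a repressor of exon inclusion, fell from 131 and 129 to 49.2, 76.4 and 58.4 (difference -1.09, adjusted p = 0.0271). HNRNPAB fell from 260.2 and 244 to 136, 113 and 132 (difference -0.99, adjusted p = 0.0156). HNRNPA1 has many processed copies in the genome among which reads can be split. HNRNPH1, the most abundant hnRNP gene in RiboMinus, read 364 and 362 and 392, 292 and 250.9, with overlapping groups, and HNRNPK, HNRNPM and HNRNPR also overlapped.

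The DXO-KO-labelled libraries were compared with the same RiboMinus libraries, so this comparison shares its controls with the one above and the values are given side by side. The label DXO-KO, the enrichment and the library kit all differ from the controls here and cannot be told apart. Here 7 of 58 members passed, 3 higher and 4 lower, where 3.29% of all 15329 genes did (2.42% higher, 0.874% lower). Groups did not overlap in 37 of the 58 members, 18 higher and 19 lower, and in 44.3% of all genes tested. SNRPF, SNRPG and HNRNPD rose, by 2.95, 2.197 and 2.23 on the log2 scale (adjusted p = 0.0429, 0.022 and 0.0439), where the WT values were 2.74, 2.42 and 2.62. SRSF2, SRSF3 and SRSF6 fell, with -1.50, -1.63 and -2.06 (adjusted p = 0.0443, 0.036 and 0.0284), where the WT values were -1.61, -1.42 and -1.60. The median over members was -0.07, against 0.20 over all genes; among genes with a mean of at least 10 FPKM it was -0.10 over 55 members and -0.06 over all genes. Without replicate 1 labelled DXO-KO, 16 members passed, 12 of them higher, where 8.89% of all genes passed. Without replicate 2 of that label 1 member and 0.0607% of all genes passed, and without replicate 3 these were 10 members and 10.1%. Without either RiboMinus library 0 members and 0% of all genes passed.

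HNRNPH2, an X-linked relative of HNRNPH1, was the remaining call. It read 77.3 and 66 FPKM in RiboMinus, 0, 13.1 and 34 among WT NAD-Capture libraries and was listed at 0 in all libraries with the label DXO-KO (adjusted p = 0.00737). The readthrough transcript RPL36A-HNRNPH2, NM_001199973, which joins the neighbouring gene RPL36A to HNRNPH2, was listed at 0 in both RiboMinus libraries and read 55.3, 49.9 and 34 FPKM across WT NAD-Capture and 48.2, 80.2 and 43.5 in the DXO-KO-labelled libraries. Summed with HNRNPH2 it gave 77.3 and 66 FPKM in RiboMinus, 55.3, 63 and 68 among WT NAD-Capture libraries and 48.2, 80.2 and 43.5 in the DXO-KO-labelled libraries. The groups then overlapped, and the log2 difference was -0.37 ± 0.33 (adjusted p = 0.56) in place of a call. The readthrough transcript is 562 nt long and the HNRNPH2 transcripts 2223 nt. Because FPKM divides by length, the same FPKM stands for fewer fragments on the readthrough. HNRNPH2 alone held about 1668 and 1164 fragments in RiboMinus and 0, 4 and 17 in WT NAD-Capture. Exact fragment numbers of the readthrough were not estimated, and whether they lay in its RPL36A or HNRNPH2 part is not known. The sum thus does not show that HNRNPH2 kept its RiboMinus level.

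The same test was run on single transcripts of the members. A gene's few fragments in NAD-Capture are split between its transcripts unreliably, so transcript values there are less sure than gene sums. In WT NAD-Capture against RiboMinus 24 of 111 tested transcripts passed (14 higher, 10 lower), near the share of 25.7% over all 24777 transcripts (12.6% higher, 13.1% lower). In the DXO-KO-labelled libraries against RiboMinus 17 of 109 passed (7 higher, 10 lower), where 14.0% of all did (4.41% higher, 9.63% lower). Between the NAD-Capture groups 0 of 114 passed, where 0.032% of all passed (0.024% higher, 0.008% lower). At an unadjusted p under 0.05 there were 12 of the 114, beside 9.17% of all 25004 transcripts. In 19 of the 34 genes with at least 2 transcripts tested, WT NAD-Capture stood above RiboMinus for 1 transcript and below it for another. This counts differences of any size, called or not, such as 0.29 and -1.40 in SRSF8 (limma, adjusted p = 0.88 and 0.512). The matching share over all genes was not computed, so the count cannot be read as particular to splicing factor genes.

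SF3B1 was the clearest case. Its short transcript NM_001005526, of 651 nt, was listed at 0 in both RiboMinus libraries and read 376, 467 and 419.8 FPKM across WT NAD-Capture and 204, 434 and 707 in the DXO-KO-labelled libraries. The main transcript NM_012433, of 6526 nt, read 169 and 163 in RiboMinus, 98.5, 57 and 65.4 among WT NAD-Capture libraries and 72.4, 116 and 112 in the DXO-KO-labelled libraries. The short transcript was listed above 0 in every NAD-Capture library and in neither RiboMinus library, while the main one was lower in every NAD-Capture library (log2 difference in WT -1.20 ± 0.29, adjusted p = 0.0496).

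The short transcript took 79.2, 88.4 and 84.5% of the gene's FPKM across WT NAD-Capture and 66.7, 76.8 and 84.5% in the DXO-KO-labelled libraries. Because FPKM divides by length, that is about 33 to 47 fragments in WT NAD-Capture beside about 60 to 120 on the main transcript. Summed without the short transcript, SF3B1 was lower in WT NAD-Capture by a log2 difference of -1.18 ± 0.24 (adjusted p = 0.0248), so the direction of its gene sum rests on that transcript. In the DXO-KO-labelled libraries the sum without it differed from RiboMinus by -0.55 ± 0.24 (adjusted p = 0.264).

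**Figure D4:**
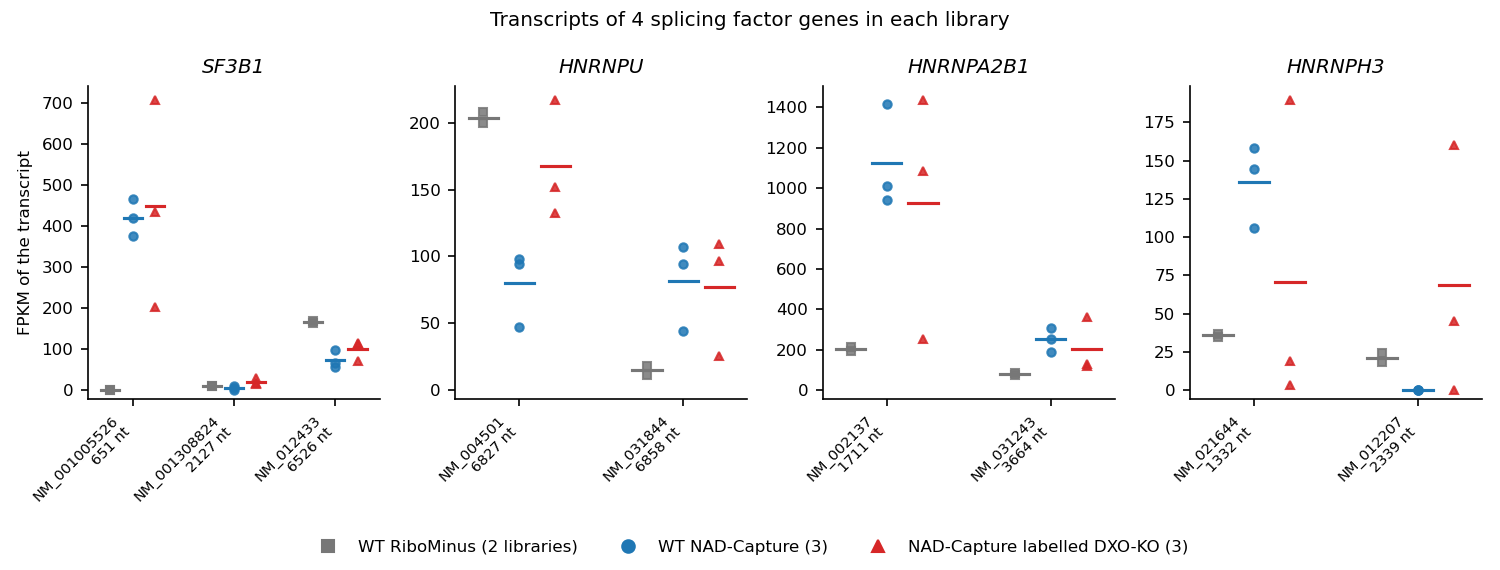
FPKM of each listed transcript (linear axes, scale differs by gene) of SF3B1, HNRNPU, HNRNPA2B1 and HNRNPH3 in each library, ordered by length. Points are libraries and short lines group means; the 651-nt transcript of SF3B1 is at 0 in RiboMinus and at 376, 467 and 419.8 among WT NAD-Capture libraries, while its 6526-nt transcript is lower there than in RiboMinus.

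HNRNPU, which binds chromatin-associated RNA, showed a shift in listed FPKM between transcripts of nearly equal length, so dividing by length hardly affects their ratio. Fragments from stretches that the transcripts share cannot tell them apart. The gene held about 169 to 246 fragments in WT NAD-Capture, and how many of them fell where the transcripts differ is not known. NM_031844, of 6858 nt, read 11.5 and 18.1 FPKM in RiboMinus, 94.5, 107 and 44 among WT NAD-Capture libraries and 25.2, 96.5 and 109 in the DXO-KO-labelled libraries. NM_004501, of 6827 nt, read 208 and 199.5, then 98.3, 47.1 and 94.1, then 133, 152 and 217. The first took 5.22 and 8.3% of the gene's FPKM in RiboMinus, 49, 69.4 and 31.9% among WT NAD-Capture libraries and 16, 38.8 and 33.5% in the DXO-KO-labelled libraries, higher in every NAD-Capture library. NM_031844 rose in WT NAD-Capture (log2 difference 2.33 ± 0.50, adjusted p = 0.0368) and NM_004501 did not pass (adjusted p = 0.075).

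Both transcripts of HNRNPA2B1 rose in WT NAD-Capture, NM_002137 by 2.45 (adjusted p = 0.00455) and NM_031243 by 1.62 (adjusted p = 0.0169), so the rise of that gene did not rest on a single transcript. In HNRNPH3 the transcript NM_021644 rose from 34.8 and 37 to 158, 106 and 145 FPKM (log2 difference 1.88, adjusted p = 0.00881), while NM_012207 read 24.2 and 18.3 in RiboMinus and at most 0.00426 in WT NAD-Capture (difference -4.46, adjusted p = 0.00231). In the DXO-KO-labelled libraries NM_012207 read 45.1 and 160.4 in replicates 1 and 2 and near 0 in replicate 3, so it was not lost from that group.

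In HNRNPC, NM_004500 read 5.41 and 4.32 FPKM in RiboMinus and 259, 112 and 453 among WT NAD-Capture libraries (log2 difference 5.34 ± 0.66, adjusted p = 0.00877), and 1.09, 496 and 451 in the DXO-KO-labelled libraries. Its companion NM_031314 read 267, 627 and 0 in WT NAD-Capture, high where NM_004500 was low. NM_001098206 of HNRNPF read 38.9 and 30.1 FPKM in RiboMinus and at most 0.0187 in the 6 NAD-Capture libraries. NM_007279 of U2AF2 read 19.5 and 22.9 in RiboMinus and at most 0.0796 in NAD-Capture. Both passed in both comparisons with RiboMinus (adjusted p = 0.00216 and 0.00218 in WT, 0.00963 and 0.00963 for the label DXO-KO). All transcripts of HNRNPF together held about 15 to 115 fragments in a NAD-Capture library, and those of U2AF2 about 12 to 128. A transcript value near 0 at this depth need not be a loss.

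In the DXO-KO-labelled libraries, the transcripts with the largest calls against RiboMinus also included NM_003094 of SNRPE, at 19.6 and 26 FPKM in RiboMinus and 0 in all 3, and NM_003092 of SNRPB2, at 18.1 and 27.3 in RiboMinus and at most 0.000561. The gene sums of SNRPE and SNRPB2 were not called there (adjusted p = 0.559 and 0.771), where other transcripts of the same genes held FPKM. All transcripts of SNRPE together held only about 2, 3 and 2 fragments in these libraries, and those of SNRPB2 about 30, 7 and 4. In HNRNPD, NM_002138 rose in both comparisons, from 19.8 and 36.9 to 129, 498 and 329 and 126, 270.1 and 219 (adjusted p = 0.036 and 0.0304).

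Noncoding transcripts (RefSeq NR identifiers), the class to which poison-exon and retained-intron products belong, were listed beside coding ones for 11 members, of which 8 had at least 10 FPKM in every library. In SRSF10 the noncoding share of the gene's FPKM was 27.3 and 27% in RiboMinus, 41.1, 35.7 and 34.2% among WT NAD-Capture libraries and 59.4, 39.5 and 54.5% in the DXO-KO-labelled libraries. Every NAD-Capture library lay above both RiboMinus libraries, and the NAD-Capture groups overlapped. The mean difference between WT NAD-Capture and RiboMinus was 9.78 percentage points (exact two-sided permutation test, p = 0.1, the smallest that 3 libraries against 2 allow; Benjamini-Hochberg p = 0.75 over 30 tests).

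In other SR genes the share scattered between libraries of a group. SRSF6 read 16.8 and 21.9% in RiboMinus but 95, 0 and 100.0% across WT NAD-Capture and 16, 0 and 0% in the DXO-KO-labelled libraries. SRSF2 read 1.41 and 1.83%, then 0, 69.5 and 0%, then 17.7, 57.3 and 0%. SRSF3 read 6.74 and 8.31%, then 14.4, 46.6 and 0%, then 14, 0 and 100%. SRSF1 stood at 4.38 and 3.64% in RiboMinus and reached 39.0% in replicate 1 labelled DXO-KO with 0 in replicate 2. HNRNPDL, SNRPC and SNRPD3 stayed under 9% in all but 1 library, the exception being HNRNPDL at 46.3% in replicate 2 labelled DXO-KO. SRSF8, which fell short of 10 FPKM in some libraries and was chosen after its values were seen, read 5.78 and 5.98% in RiboMinus, 0, 100.0 and 0% across WT NAD-Capture and 100.0, 100.0 and 100.0% in the DXO-KO-labelled libraries, which held about 25, 5 and 3 fragments of the gene (exact two-sided permutation test against RiboMinus, p = 0.1; Benjamini-Hochberg p = 0.75). As single transcripts of SRSF8 in that comparison, NM_032102 fell from 10.9 and 12.2 FPKM to a listed 0 in all 3 libraries and NR_103726 rose by 2.60 on the log2 scale (limma, adjusted p = 0.0102 and 0.0138), while the gene sum differed by -0.35 (adjusted p = 0.537).

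Transcript length moved with the difference between NAD-Capture and RiboMinus. Over 56 members with a length, the WT difference and log2 length had a Pearson r of -0.307 and a Spearman rho of -0.29 across genes, and over 14420 genes they had -0.0726 and -0.116; genes share libraries and are not independent, so these are descriptions. Of the 8 members under 1000 nt, 6 read higher in WT NAD-Capture, with a median of 0.73, where all genes of that length had a median of 0.45. Of the 15 members from 1000 to under 2000 nt, 7 read higher and the median was -0.18, beside 0.13 over all genes. Of the 21 members from 2000 to under 4000 nt, 2 read higher and the median was -0.77, where all genes of that length had a median of -0.02. Of the 12 members of 4000 nt or more, 4 read higher and the median was -0.32, beside -0.28 over all genes. SF3B1 is among those 4, at 6273 nt, because lengths are means weighted by RiboMinus FPKM. The rise of its gene sum rests on its 651-nt transcript, as described above. SNRPG and SNRPC are in the shortest class, whereas SNRPF, SNRPD3, HNRNPD and HNRNPA2B1 are longer than 1000 nt. The part of length in the calls was not tested.

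**Figure D5:**
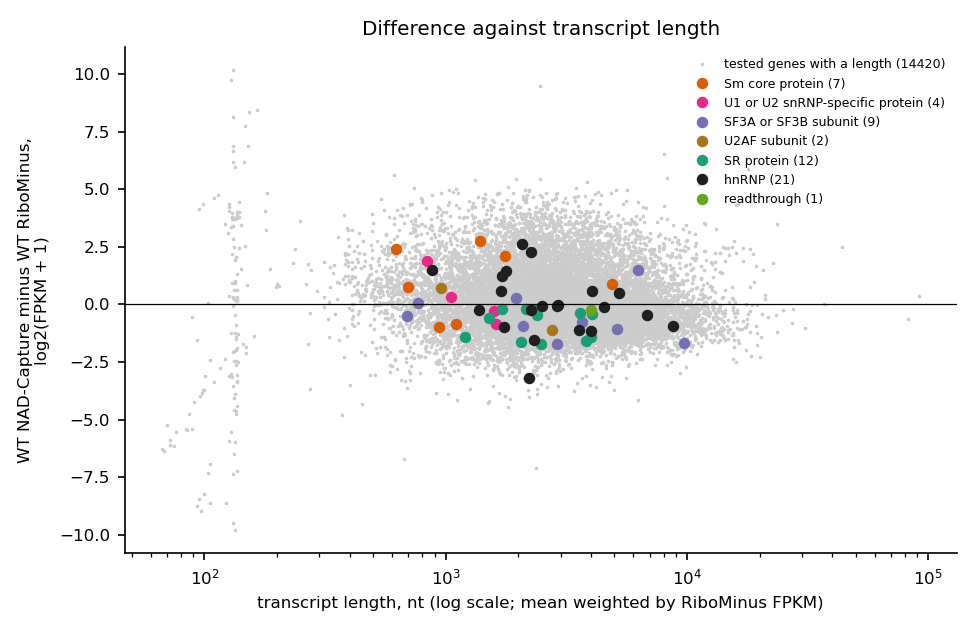
WT NAD-Capture minus WT RiboMinus, log2(FPKM + 1), against transcript length (log axis) for 56 members, coloured by role, over the 14420 tested genes with a length (grey). Members under 1000 nt lie mostly above 0 and SR proteins below 0 at every length they cover.

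Other spliceosome genes, from lists drawn up with the members, gave no call in the higher direction for the structural proteins in WT NAD-Capture against RiboMinus. Over all genes tested 16.6% were called higher and 7.87% lower, with a median of 0.22, and genes with a mean of at least 10 FPKM had a negative median, given above. Of 16 tested genes of the U4/U6.U5 tri-snRNP, 7 fell and 0 rose, with a median of -1.27. They included PRPF8, the scaffold of the catalytic centre, at -1.89 (adjusted p = 0.0118), EFTUD2, the GTPase that sits beside it, at -1.87 (adjusted p = 0.0129), and the helicase SNRNP200 at -1.50 (adjusted p = 0.00663). Of the 16 genes of the Prp19 complex and its partners 3 fell, of 8 other spliceosomal helicases 3 fell, and of 31 other splicing regulators 10 fell, with 0 rising in each list. The LSm ring, the Sm-like ring of U6, had 0 of 7 called, with a median of -0.04, beside 5 rises and 1 fall among 7 Sm genes; the difference between the rings was not tested.

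Among 7 kinases that phosphorylate SR proteins, SRPK1 fell by 1.40 on the log2 scale (adjusted p = 0.0281) and SRPK3 rose by 4.24 (adjusted p = 0.00333). SRPK3 averaged 0.308 FPKM in RiboMinus, 24.7 among WT NAD-Capture libraries and 21.5 in the DXO-KO-labelled libraries, and rose there too (adjusted p = 0.0229). In the DXO-KO-labelled libraries against RiboMinus the 16 genes of the tri-snRNP list had 1 rise, SNRNP27, and 2 falls, PRPF8 and EFTUD2. Over all genes tested there, 2.42% were called higher and 0.874% lower. Between the NAD-Capture groups 0 genes of these lists passed in limma's test. At an unadjusted p under 0.05 there were 3 of 16 tri-snRNP genes, 1 of 7 LSm genes, 0 of 16 Prp19 genes, 1 of 8 helicases, 3 of 7 kinases and 4 of 31 other regulators, beside 16.5% of all genes tested. These gene lists were not independent of earlier results on the same libraries.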

How the data were processed

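Total RNA of HEK293T cells was isolated with TRIzol and enriched as described above. The authors deposited 1 table of FPKM per RefSeq transcript for 8 libraries, without read counts. Per the submitters' processing notes the tools were TopHat2 2.1.1, Bowtie2 2.2.8.0 and Cuffdiff, with the genome build hg19; their roles and settings are not given in the sources used here. RefSeq identifiers were matched to symbols (97.8% of transcripts), and FPKM was summed per gene, the main level. Log2(FPKM + 1) was compared by moderated two-sided tests of limma 3.58.1 (R 4.3.3, eBayes with a trend) over all genes or transcripts with a mean of at least 1 FPKM in the libraries compared, with Benjamini-Hochberg adjustment and a threshold of 0.05; only the groups compared entered a fit. The pseudocount of 1 understates changes of low genes. Noncoding shares were tested with exact permutation tests over every split of the libraries (Python 3.11.15), which cannot go below p = 0.1 here. Their Benjamini-Hochberg adjustment used scipy 1.17.1. Depth was estimated from the spacing of values of 7076 transcripts; of their low values, worth a few fragments at most, 70.3% to 73.1% lay within 4% of a whole number of fragments. Lengths come from a GENCODE annotation and may differ from the authors', so fragment numbers are approximate and no count test was run. The test was also run on simulated data, with an outcome that is not reported here.

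Genes were named by rule: all called members if at most 15, otherwise the 8 with the largest difference in each direction among those called with non-overlapping groups and no library at 0, the most abundant member of each role, and the 5 called transcripts with the largest difference in each comparison. Other members named, such as SNRPD1, HNRNPA1, SF3B5 and HNRNPU's transcripts, were chosen after their values were seen. The members and all lists were chosen with earlier results of these data known. Alternatives were other pseudocounts, filters, scalings, a joint fit, a replicate block and leaving out each library. The sums of SF3B1 without its short transcript and of HNRNPH2 with RPL36A-HNRNPH2 were chosen after seeing the data.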

Additional observations from a re-analysis of the deposited data

Results flagged for a closer look

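Small RNAs and pseudogenes tied to the members were not part of the comparisons, and 4 of them gave a signal where both RiboMinus libraries were listed at 0. SNORD119, a C/D box small nucleolar RNA in an intron of SNRPB, read 1717 FPKM in replicate 1 labelled DXO-KO and was listed at 0 in the other 7 libraries. HNRNPA1P33, a pseudogene of HNRNPA1, read 31.24 FPKM in WT NAD-Capture replicate 2 only. SNRPD2P2, a pseudogene of SNRPD2, read 11.97 FPKM in replicate 2 labelled DXO-KO, 2.04 in replicate 1 and 0 elsewhere. HNRNPKP3, a pseudogene of HNRNPK, read 2.2 and 7.40 FPKM in replicates 1 and 3 labelled DXO-KO and 0 elsewhere. For 1 kb of transcript, 1 fragment was worth about 1.24, 7.27 and 12.4 FPKM in the DXO-KO-labelled libraries. In WT NAD-Capture replicate 2 it was worth about 6.04, and everywhere more on a shorter RNA. Fragments of these 4 RNAs were not estimated, and each of these values may rest on few fragments. Of the other small RNAs hosted by members, MIR7-1 in HNRNPK, SNORD111 and SNORD111B in SF3B3 and MIR636 in SRSF2 were listed at 0 in all 8 libraries.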

How the results depend on the processing

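Replicate numbers did not pair the libraries: deviations of same-numbered libraries correlated between -0.0432 and 0.0225. With the replicate block, 0 members were called in every comparison, as gene sums and as transcripts, and the median of WT NAD-Capture against RiboMinus was -0.094, with HNRNPUL2-BSCL2 at 0.11. For the DXO-KO-labelled libraries against WT NAD-Capture, 0 members were called under each alternative run. Their median was 0.34 after centring and -0.10 after quantile normalization, and 0.050 to 0.46 with 1 library left out. SNRPA was 0.12 after centring and -0.38 to 0.34 with 1 library left out. HNRNPH1, SRSF2 and U2AF1 were -0.19, -0.24 and -0.15 after quantile normalization and reached -0.14 to 0.56, -0.091 to 0.29 and -0.046 to 0.44 with 1 library left out.

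For WT NAD-Capture against RiboMinus, centring gave 30 calls (8 higher, 22 lower), scaling to coding transcripts 33 (9 and 24) and a fit of all 8 libraries 18 (8 and 10). Leaving out 1 library gave 0 to 29 calls, 0 without either RiboMinus library, and medians of -0.32 to -0.10. The median was -0.75 after centring, -0.18 after quantile normalization and -0.65 after scaling. SF3B6 was -0.46, -0.12 and -0.40 under these and -0.039 to 0.15 with 1 library left out, and HNRNPUL2-BSCL2 -0.57 to 0.11. Transcripts gave 10 calls in the fit of all 8 libraries and 8 to 38 with 1 left out.

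For the DXO-KO-labelled libraries against RiboMinus, 2 members were called without a filter, 11 (3 higher, 8 lower) after centring and 14 (4 and 10) after quantile normalization, with 0 to 16 when 1 library was left out. The median was -0.33 after centring, -0.55 after scaling and -0.088 to 0.14 with 1 left out. SF3B6 was -0.051 after quantile normalization and -0.0141 after scaling. HNRNPH1 ranged from -0.38 to 0.31 and SNRPB from -0.28 to 0.068 with 1 left out. Transcripts gave 10 calls at a mean of at least 10 FPKM, 11 in the fit of all 8 libraries and 10 to 36 with 1 left out. SF3B1 without NM_001005526 was -1.18 in WT and -0.55 in the DXO-KO-labelled libraries. The noncoding share of HNRNPDL differed by -4.98 to -3.57 percentage points in WT and that of SNRPC by -1.59 to 0 in both comparisons with RiboMinus. Except where the construction shows it (fewer libraries or genes), the cause was not tested. Depth of about 15 to 91 fragments for the median member limits every NAD-Capture value.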

Other observations

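Between the NAD-Capture groups, differences that the tests did not call were spread over all roles. The SF3A and SF3B genes had the median furthest from 0 among roles with more than 5 tested members, 0.43, with 7 of 9 higher in the DXO-KO-labelled libraries. SR protein genes had a median of 0.13 with 9 of 12 higher, and Sm core genes 0.21 with 4 of 7 higher. Under quantile normalization the SF3A and SF3B median was 0.09 and the SR protein and Sm core medians were -0.12 and -0.19. Among other splicing genes, LSm ring genes had a median of 0.81 with 6 of 7 higher, 0 called by limma and 1 at an unadjusted p under 0.05, beside 16.5% of all genes.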
